A study of Mus musculus with 16 samples.

Results

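The comparison was of anti-ITGAV against IgG in mouse bone marrow macrophages on fibronectin-coated dishes. It was made up of the 8 libraries (of 16 in the series) that the labels place on coated dishes, 4 per antibody. Macrophages were grown from tibial marrow of wild-type C57BL/6 mice aged 2 to 3 months, in 15% serum, with the macrophage growth factor CSF-1 at 12 ng/ml for 24 h and then 120 ng/ml for 48 h. The adherent cells were passaged onto dishes coated overnight with fibronectin at 10 µg/ml, grown to confluence, and kept for 24 h with 10 µg/ml of a neutralizing antibody to ITGAV, the αV integrin subunit, or with 10 µg/ml IgG. The other 8 libraries had the same antibodies on uncoated dishes. The cells carried no engineered allele in any group, and the labels do not say whether the 4 libraries of a group came from separate cultures or animals. The p-values therefore reflect how far these samples differ, and that spread may be technical alone. The study asks what αV integrin does in macrophages, in the context of the heart after infarction.

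Integrins are heterodimers of an α and a β chain that hold a cell to its matrix and signal from the contact. The αV chain pairs with several β chains, and some of these dimers, together with α5β1, bind the RGD motif of fibronectin. Neutrophils, which arise in the same marrow from progenitors shared with monocytes, make their granules in waves: primary granules at the promyelocyte stage, secondary granules at the myelocyte stage, and tertiary granules last. Lactoferrin, lipocalin 2, neutrophilic granule protein and cathelicidin are secondary granule products and serve here as markers of maturing neutrophils. Whether macrophages made part of these RNAs was not tested.

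The 8 libraries held 28521819 to 37681281 counts each, and 15469 genes passed the expression filter. Where a library lists 0 for a gene, its true level may be as high as 3 counts, which is 0.0807 to 0.104 CPM (counts relative to the library's TMM-scaled total) and covers counting error only. Macrophage markers dominated: 706 CPM was the median of the 23 tested macrophage identity genes, and Csf1r, the CSF-1 receptor, stood between 1881 and 2656 CPM in every library. The 12 tested secondary granule genes had a median of 26.4 CPM. Markers of other cell types were present at low levels. Of 7 endothelial markers 5 had counts in every library and Emcn was at 0 in all 8, with a summed level of 34.9 to 38.1 CPM with IgG and 24.3 to 39.3 CPM with anti-ITGAV. Of 12 fibroblast and stromal markers 8 had counts in every library and Lum was at 0 in all 8, with a summed level of 17.1 to 21.3 CPM with IgG and 14.8 to 16.7 CPM with anti-ITGAV. Of 11 T and NK cell markers 3 had counts in every library, and Ncr1 and Gzma were at 0 in all 8. The part of these cells in the results was not tested. The library anti-ITGAV 3 stood apart. Its mitochondrial share of counts was 3.67%, where the remaining 15 libraries had 1.30% to 1.60%. Across genes, its departure from the average library on the log2 CPM scale went with transcript GC content at a Spearman's rho of -0.70, and in the remaining libraries at -0.30 to 0.55. The 0.55 was that of IgG 2 on fibronectin, and IgG 3 on fibronectin had 0.39. IgG 1 and IgG 4 on fibronectin had -0.29 and -0.25. Leaving out anti-ITGAV 3 thus does not remove every GC trend, and medians of the granule lists are also given with an offset for GC content. Changes and list medians are therefore given with that library and without it.

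With 4 libraries against 4, the genes that changed were Ltf and Lcn2, both lower with anti-ITGAV, which is 0.0129% of the genes tested. The test was edgeR's quasi-likelihood F test, in a model that takes the spread from all 16 libraries, with a threshold of 0.05 on the Benjamini-Hochberg adjusted p. Without anti-ITGAV 3, 5 of 15765 genes changed, or 0.0317%. All 5 were lower: Ngp, Ltf, S100a9, Lcn2 and S100a8. These calls rest on the uncoated libraries for part of the spread: fitted on the 8 fibronectin libraries alone, 0 genes were called (edgeR, smallest adjusted p 0.294, 276 genes at an unadjusted p under 0.05), and on the 7 without anti-ITGAV 3 also 0 (smallest adjusted p 0.146, 291 genes). All 5 encode products of neutrophil granules or of the neutrophil cytosol. No gene was called higher by this test with or without the library, while DESeq2 called 7 higher and 11 lower (0.0711%) among 18 genes with all libraries (0.116%). The 7 higher were Plk2, Fos, Cytip, Rcbtb2, Pcdh7, Myo1e and Bhlhb9. With a per-library offset for GC content, edgeR called 11 genes (0.0711%), 6 lower and 5 higher. The 5 higher were Fos, Zfp36, Plk2, Myo1e and Pcdh7. At an unadjusted p under 0.05, 318 genes were lower (2.06%) and 402 higher (2.6%). Without anti-ITGAV 3 these numbers were 209 (1.33%) and 187 (1.19%). The median standard error (SE) of a log2 change was 0.19. In simulated counts of 15469 genes with 200 changed, the test recovered 44.8% of 1.5-fold, 82.1% of 2-fold and 100% of 4-fold changes, with 5.62% false calls. The changed genes there had at least 1 CPM, and no library had a GC trend or a raised mitochondrial share. With 200 changed genes the adjusted threshold is also easier to pass than with few. These shares therefore need not hold for the measured libraries.

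The stretches before 4 of these 5 genes are shown because the genes were lower together, and for Lcn2 no base of the window lay outside the deposited gene. They run 5′ to 3′ on the gene's strand and are parts of the 250 bases before the RefSeq start (GRCm38.p6) that lie outside the deposited gene. They cover chr9:111019042-111019270 (plus) for Ltf, chr9:110419558-110419746 (plus) for Ngp, chr3:90695722-90695971 (minus) for S100a9 and chr3:90668821-90668977 (plus) for S100a8. Capitals mark matches to TTGCNNAA on either strand, a core that factors of the C/EBP family, which act in granulocyte differentiation, are known to bind.

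Ltf: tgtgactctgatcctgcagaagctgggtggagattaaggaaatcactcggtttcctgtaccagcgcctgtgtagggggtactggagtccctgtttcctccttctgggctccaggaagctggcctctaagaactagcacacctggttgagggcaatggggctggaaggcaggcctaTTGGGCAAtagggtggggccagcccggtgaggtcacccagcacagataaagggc
Ngp: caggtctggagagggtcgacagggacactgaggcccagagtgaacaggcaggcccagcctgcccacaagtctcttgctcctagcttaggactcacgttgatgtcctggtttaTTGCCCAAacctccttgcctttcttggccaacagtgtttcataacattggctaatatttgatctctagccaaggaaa
S100a9: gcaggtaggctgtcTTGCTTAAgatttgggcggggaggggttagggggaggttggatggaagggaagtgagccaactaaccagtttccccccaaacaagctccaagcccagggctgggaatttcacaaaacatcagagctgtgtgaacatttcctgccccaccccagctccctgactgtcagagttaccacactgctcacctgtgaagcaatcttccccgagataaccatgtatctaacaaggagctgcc
S100a8: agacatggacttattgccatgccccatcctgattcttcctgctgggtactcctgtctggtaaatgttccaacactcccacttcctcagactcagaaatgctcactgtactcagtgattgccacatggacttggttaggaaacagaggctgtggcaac

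The match began 54 bases before the deposited start of Ltf, 77 before that of Ngp and 236 before that of S100a9. Ngp held a second match, 11 bases before the RefSeq start and inside the deposited gene. Lcn2 held 1 match in its 250 bases, and the windows of S100a8 and Camp held none. Of the 29 tested granule and cytosol genes with a window in the RefSeq table, 8 held a match (27.6%). By list these were 0 of 7 primary granule genes, 4 of 12 secondary granule genes and 4 of 10 tertiary granule and cytosol genes. Of all 32851 windows of that length 9.56% held a match. Those windows were not limited to tested genes, and the lists were chosen with earlier results of these data known. The shares are therefore a description, and their difference was not tested. A match is a description of letters and says nothing of what binds there.

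Ltf encodes lactoferrin, an iron-binding protein of secondary granules (ENSMUSG00000032496, chromosome 9, 111019271 to 111042767, plus strand, GRCm38). It stood at 54.7, 73.0, 69.4 and 50.5 CPM in IgG libraries 1 to 4 and at 32.9, 30.7, 30.3 and 29.7 CPM in anti-ITGAV libraries 1 to 4. Every anti-ITGAV library lay below every IgG library, and the anti-ITGAV values lay closer together than the IgG values. The log2 change was -1.0 ± 0.11 (SE, edgeR adjusted p = 0.000992), a mean of 30.9 ± 1.41 CPM (SD, n = 4) against 61.9 ± 11.0 CPM (SD, n = 4). Without anti-ITGAV 3 it was -0.99 ± 0.11 (edgeR adjusted p = 0.000779).

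Lcn2 encodes lipocalin 2, which binds bacterial siderophores and is stored in the same granules (ENSMUSG00000026822, chromosome 2, 32384633 to 32388252, minus strand). Its IgG libraries held 21.9, 25.4, 29.2 and 21.8 CPM and its anti-ITGAV libraries 13.6, 13.9, 13.6 and 14.4 CPM. The groups did not overlap, and anti-ITGAV 3 was among the others of its group. The log2 change was -0.83 ± 0.11 (SE, edgeR adjusted p = 0.00436), and -0.82 ± 0.11 without anti-ITGAV 3 (edgeR adjusted p = 0.00331). Leaving out anti-ITGAV 1 instead took the adjusted p to 0.0550. In bulk RNA, fewer cells of a type and less of an RNA per cell cannot be told apart, which holds for every value here.

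Ngp encodes neutrophilic granule protein (ENSMUSG00000032484, chromosome 9, 110419747 to 110423012, plus strand). It stood at 75.9, 104, 97.4 and 77.4 CPM with IgG and at 45.5, 41.8, 79.3 and 43.9 CPM with anti-ITGAV. Only anti-ITGAV 3 reached into the IgG range, above IgG 1 and 4. The log2 change of -0.75 ± 0.17 did not pass (edgeR adjusted p = 0.337). Without anti-ITGAV 3 it was -1.02 ± 0.11 (edgeR adjusted p = 0.000359).

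S100a9 and S100a8 encode the chains of calprotectin, a calcium-binding and zinc-binding dimer of the neutrophil and monocyte cytosol. S100a9 (ENSMUSG00000056071, chromosome 3, 90692632 to 90695721, minus strand) stood at 103, 102, 115 and 89.4 CPM with IgG and at 64.1, 64.8, 81.1 and 56.7 CPM with anti-ITGAV. Its groups did not overlap even though anti-ITGAV 3 was the highest of its group. The log2 change was -0.62 ± 0.11 (edgeR adjusted p = 0.131), and -0.72 ± 0.09 without anti-ITGAV 3 (edgeR adjusted p = 0.00295). S100a8 (ENSMUSG00000056054, chromosome 3, 90668978 to 90670035, plus strand) stood at 73.7, 76.3, 74.7 and 59.0 CPM with IgG and at 48.0, 43.8, 141 and 42.7 CPM with anti-ITGAV. In anti-ITGAV 3 it was above every IgG library, and in the other 3 below every one. The log2 change was -0.04 ± 0.28 with all libraries and -0.66 ± 0.09 without that library (edgeR adjusted p = 0.00665).

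Camp, which encodes the cathelicidin precursor (ENSMUSG00000038357, chromosome 9, 109847379 to 109849617, minus strand), stood at 5.66, 7.69, 7.16 and 5.42 CPM with IgG. With anti-ITGAV it stood at 3.79, 4.01, 2.29 and 2.77 CPM, so the groups did not overlap and anti-ITGAV 3 was the lowest. The log2 change of -1.01 ± 0.19 did not pass (edgeR adjusted p = 0.131), nor did -0.87 ± 0.18 without anti-ITGAV 3 (edgeR adjusted p = 0.214). Of 23 alternative settings 3 called Camp, among them DESeq2 (adjusted p = 0.000568) and edgeR with the GC offset (adjusted p = 0.0224). Summed over Ltf, Lcn2, Ngp and Camp, the IgG libraries held 155 to 211 CPM and the anti-ITGAV libraries 90.4 to 125 CPM, with anti-ITGAV 3 at 125. Anti-ITGAV 3 was thus high for Ngp, S100a8 and S100a9, low for Camp, and within its group for Ltf and Lcn2. With the GC offset the log2 change of Ltf was -0.96 (edgeR adjusted p = 4.3e-05) and that of Lcn2 -0.67 (edgeR adjusted p = 0.0224). The part of the mitochondrial share in these values was not tested.

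**Figure D1:**
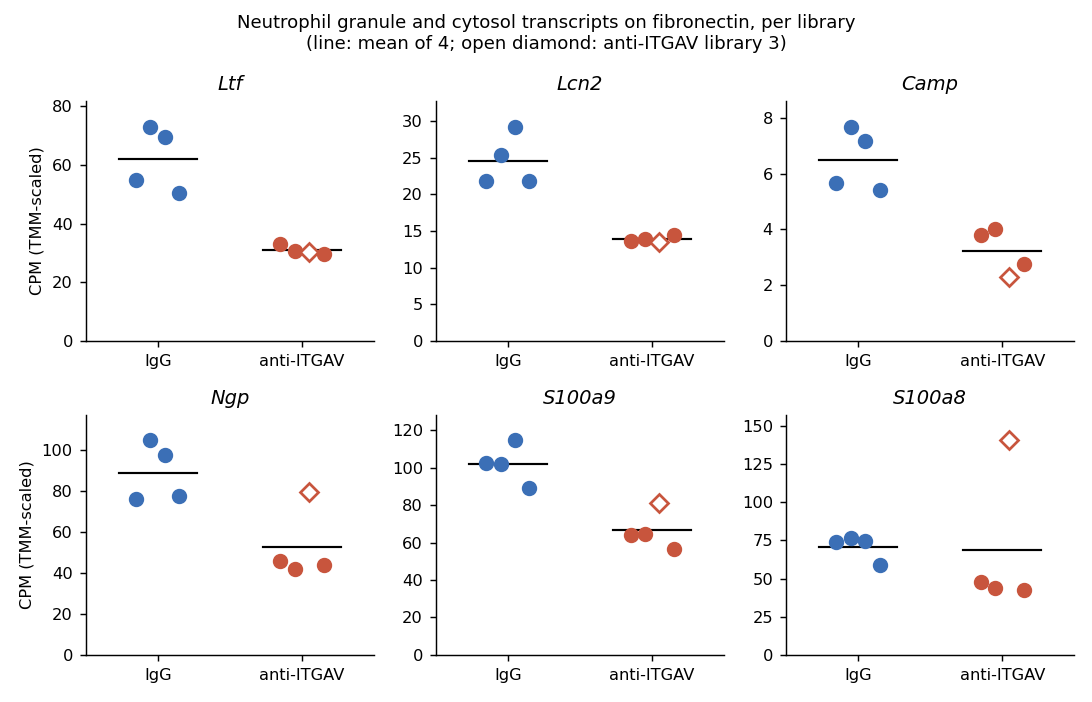
Level in CPM (vertical axis, from 0) of 6 neutrophil transcripts in each fibronectin library, IgG in blue and anti-ITGAV in red, with the mean of 4 as a line. The open diamond is anti-ITGAV 3, which lies within its group for Ltf (30.3 CPM) and far above it for S100a8 (141 CPM).

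The secondary granule list as a whole had a negative median. Of its 12 tested members, 10 had a negative log2 change, and the median was -0.71 against 0.00 over all genes tested. Without anti-ITGAV 3, 10 were negative and the median was -0.80. With the GC offset the median was -0.65, and -0.77 without anti-ITGAV 3. Without the offset, 6 were lower and 1 was higher at an unadjusted p under 0.05, against 2.06% and 2.6% of all genes. Without anti-ITGAV 3, 7 were lower and 0 higher, against 1.33% and 1.19%. The groups did not overlap, anti-ITGAV lower, for 5 of the 12, against 1.37% of all genes, and for 7 without anti-ITGAV 3, against 2.09%. Cd177, a neutrophil surface glycoprotein held in these granules, stood at 4.48 to 6.07 CPM with IgG and 2.67 to 3.98 CPM with anti-ITGAV (log2 change -0.81 ± 0.16, edgeR adjusted p = 0.176, and -0.79 ± 0.17 without anti-ITGAV 3). Itgb2l, a β2-like integrin chain, stood at 4.78, 4.74, 4.02 and 3.02 CPM with IgG and 1.74, 2.35, 0.995 and 2.08 CPM with anti-ITGAV. It had the most negative log2 change of the list, -1.21 ± 0.26 (edgeR adjusted p = 0.247), and -1.01 ± 0.23 without anti-ITGAV 3. It overlaps Igsf5 on the other strand, and whether the counting used strand is not given in the sources used here. Olfm4, a marker of a neutrophil subset, was near the limit that 0 counts allow in anti-ITGAV 4 (0.139 CPM) and had a change of -0.67 ± 0.46, and -0.90 ± 0.50 without anti-ITGAV 3.

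Members with changes near 0 or above it included genes that macrophages themselves express. Mmp8, the neutrophil collagenase, changed by 0.42 ± 0.16 on the log2 scale without passing (edgeR adjusted p = 0.721), with 25.2 to 32.2 CPM under IgG and 30.0 to 46.0 CPM under anti-ITGAV, and by 0.32 ± 0.16 without anti-ITGAV 3. Chil3, a chitinase-like protein also made by macrophages, stood at 69.1 to 70.0 CPM with IgG. Its change was -0.15 ± 0.13, and -0.27 ± 0.11 without anti-ITGAV 3, where its groups did not overlap. Cyba, a subunit of the phagocyte oxidase, stood at 380 to 496 CPM with IgG, at 393 to 416 CPM in 3 anti-ITGAV libraries and at 188 CPM in anti-ITGAV 3. Its log2 change was -0.26 ± 0.18, and -0.05 ± 0.09 without that library.

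The primary granule list also had a negative median, which lay nearer to 0 without anti-ITGAV 3. With the GC offset the median log2 change of the 7 tested members was -0.40, and -0.24 without that library. Without the offset it was -0.56, and -0.28 without that library. At an unadjusted p under 0.05, 4 were lower with all libraries, against 2.06% of all genes, and 2 without anti-ITGAV 3, Ctsg and Hdc, against 1.33%. Hdc encodes histidine decarboxylase, an enzyme rather than a stored granule protein. Ctsg, the serine protease cathepsin G, stood at 3.00 to 4.05 CPM with IgG and 1.67 to 2.13 CPM with anti-ITGAV, with no overlap and a change of -0.81 ± 0.16 (edgeR adjusted p = 0.176). Without anti-ITGAV 3 its change was -0.74 ± 0.17. The other proteases were spread wider: Prtn3, proteinase 3, was at 1.88 CPM in anti-ITGAV 3 and 3.57 to 5.59 CPM in the others of its group, against 4.75 to 8.05 CPM with IgG (-0.62 ± 0.25, and -0.38 ± 0.19 without anti-ITGAV 3). Elane, neutrophil elastase, was at 1.18 CPM in anti-ITGAV 3 and 3.49 to 4.37 CPM in the others, against 2.53 to 6.08 CPM (-0.56 ± 0.30, and -0.28 ± 0.22 without it). Mpo, myeloperoxidase, had a change of -0.36 ± 0.15, and -0.21 ± 0.11 without anti-ITGAV 3. Bpi, the bactericidal protein of these granules, was at 0 in all 8 libraries.

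The tertiary granule and cytosol list had a median of -0.38 over 12 tested members, and -0.36 without anti-ITGAV 3. With the GC offset these medians were -0.28 and -0.37. Without the offset, 10 changes in the list were negative both with and without anti-ITGAV 3, where 7732 of 15469 genes were negative with all libraries. At an unadjusted p under 0.05, 5 were lower with all libraries, against 2.06% of all genes, and 5 without anti-ITGAV 3, against 1.33%. S100a9, Pglyrp1 and Retnlg were in both counts, Mmp9 and Padi4 in the first, and S100a8 and Wfdc21 in the second. Pglyrp1, a peptidoglycan recognition protein, had a change of -0.44 ± 0.16 and Retnlg, a resistin-like protein of neutrophils, one of -0.38 ± 0.14 (edgeR adjusted p = 0.721 for each). Without anti-ITGAV 3 they were -0.53 ± 0.17 and -0.41 ± 0.15. Mmp9, the gelatinase that names these granules, had a change of -0.29 ± 0.13, and -0.17 ± 0.10 without anti-ITGAV 3. Padi4, which citrullinates histones, had -0.28 ± 0.12, and -0.15 ± 0.08. Wfdc17, an antiprotease-like protein also made by macrophages, was at 238 CPM in anti-ITGAV 3 and at 109 to 135 CPM in the other 7 libraries (0.33 ± 0.16, and 0.04 ± 0.07 without it).

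Over the 3 granule and cytosol lists, 31 of 38 members were tested and 25 of the 31 had a negative change, and 26 without anti-ITGAV 3. The median was -0.40, and -0.38 without anti-ITGAV 3. The groups did not overlap for 8 members, all lower, and for 13 without anti-ITGAV 3, where 2.09% of all genes were lower without overlap. The summed CPM of the 3 lists is set by a few abundant genes and did not separate the groups: 2747 to 3114 CPM with IgG, 2719 to 3085 CPM in 3 anti-ITGAV libraries and 3425 CPM in anti-ITGAV 3. The lists and the 4 markers were chosen with earlier results of these data known, so these counts are a description.

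**Figure D2:**
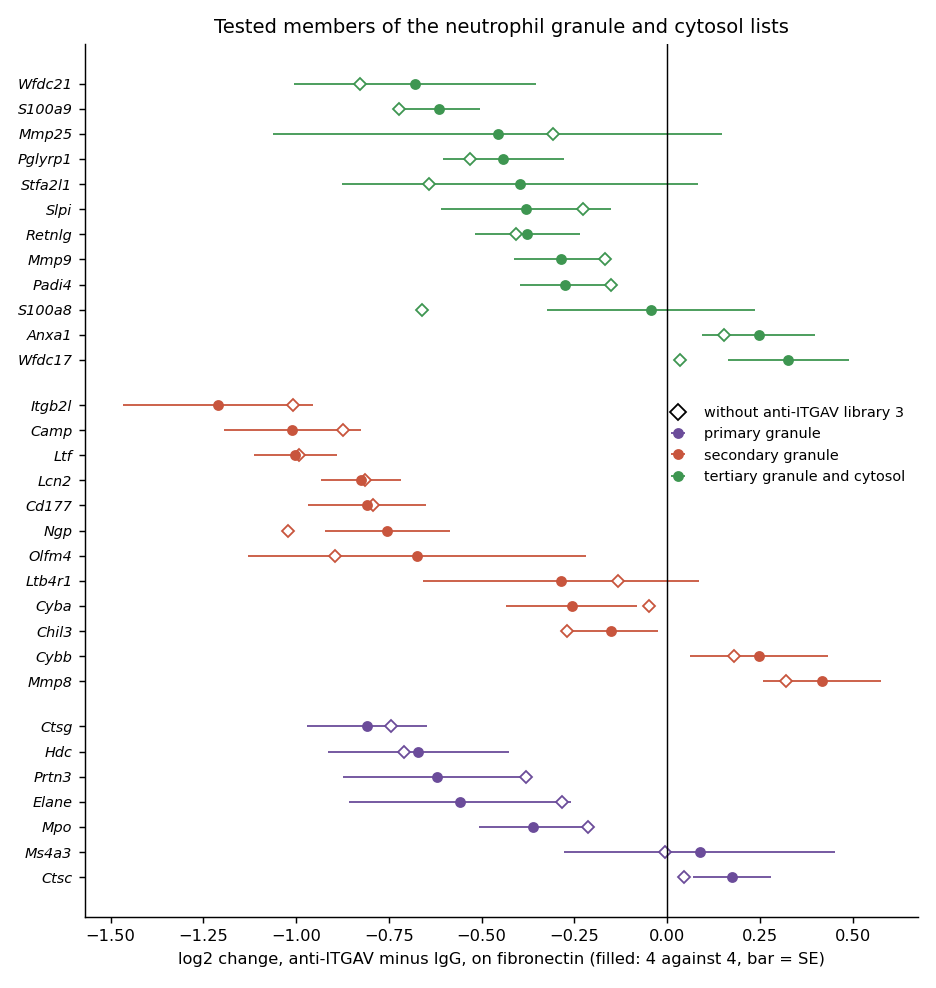
Log2 change, anti-ITGAV minus IgG on fibronectin (horizontal axis), of each tested member of the 3 granule and cytosol lists, filled points with SE for 4 against 4 and open diamonds without anti-ITGAV 3. Ltf, Lcn2 and Cd177 hardly move between the fits, and S100a8 moves from -0.04 to -0.66.

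Receptors and transcription factors of neutrophils had a median nearer to that of all genes. The 16 tested members of the surface and regulator list had a median of -0.06, and -0.11 without anti-ITGAV 3. Of these, 10 were negative and 6 positive, and 12 and 4 without anti-ITGAV 3. Their levels ran widely, with Cebpa at 159 to 226 CPM and Mrgpra2b at 0 to 0.539 CPM with IgG. Which cells made these RNAs was not tested. None of the 16 was lower or higher at an unadjusted p under 0.05, against 4.65% of all genes, so 0 in a list of this size says little. Without anti-ITGAV 3, 1 was lower, Ly6g, against 1.33% of all genes. Csf3r, the G-CSF receptor, had a change of 0.04 ± 0.13 and Cxcr2, a chemokine receptor of mature neutrophils, one of -0.13 ± 0.19. Without anti-ITGAV 3 they were 0.15 ± 0.11 and -0.17 ± 0.21. Ly6g, the classical surface marker of mouse neutrophils, was low, at 0.914 to 1.72 CPM with IgG and 0.243 to 1.56 CPM with anti-ITGAV (-0.52 ± 0.44, and -1.01 ± 0.44 without anti-ITGAV 3). Cebpe, the factor that drives secondary granule genes, stood at 2.32, 3.19, 3.94 and 3.81 CPM with IgG and 2.10, 2.51, 0.403 and 3.08 CPM with anti-ITGAV. Anti-ITGAV 3 was far below the other 7 libraries, and the change was -0.72 ± 0.37 with it and -0.38 ± 0.23 without it. Cebpd, a related factor, was at 6.83 CPM in anti-ITGAV 3 and 22.2 to 27.8 CPM in the other 7, and its change went from -0.28 ± 0.27 to 0.01 ± 0.13.

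The list of basophil, mast cell and eosinophil genes had 6 negative and 8 positive changes, and 8 and 6 without anti-ITGAV 3. On uncoated dishes 12 were negative and 2 positive, where 7241 of all 15469 genes were negative. The median level of the list was 1.11 CPM, and Fcer1a and Ear2 were at 0 in some libraries. Its median change therefore says little about these cells. The 14 tested members had a median of 0.09, and -0.19 without anti-ITGAV 3. Prss34, a basophil protease, was one of the lower genes, at 7.74, 10.9, 11.1 and 8.65 CPM with IgG and 5.56, 5.37, 4.65 and 4.89 CPM with anti-ITGAV (-0.91 ± 0.16, edgeR adjusted p = 0.131). Its groups did not overlap, and without anti-ITGAV 3 the change was -0.86 ± 0.17 (edgeR adjusted p = 0.214). Mcpt8, another basophil protease, was at 4.20 CPM in anti-ITGAV 3 and at 1.59 to 2.41 CPM in the others of its group, and its change was -0.46 ± 0.24 with that library and -0.80 ± 0.20 without it. Il4, a basophil cytokine, had a change of 0.62 ± 0.28, and 0.55 ± 0.30 without anti-ITGAV 3. Lck, a T cell kinase, was near the counting limit, at 0.298 to 0.701 CPM with IgG and 0.0693 to 0.273 CPM with anti-ITGAV (-1.49 ± 0.62, and -1.49 ± 0.72 without anti-ITGAV 3), in a T and NK cell list with 3 tested members and medians of 0.46 and 0.27. The B and plasma cell list had a median of -0.13 over 7 tested members with and without anti-ITGAV 3. The erythroid and megakaryocyte list had -0.18 over 4, and -0.06 without it, and the fibroblast and stromal list -0.20 over 8, and -0.28. In both fits 0 members of the B cell and stromal lists had an unadjusted p under 0.05. Of all genes 4.65% did with all libraries and 2.51% without anti-ITGAV 3, so 0 in such short lists says little. The dendritic cell list had a median of -0.26 over 11 tested members, and -0.23 without anti-ITGAV 3, and its summed level was 123 CPM in anti-ITGAV 3 against 267 to 364 CPM in the other 7 libraries.

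A rule took the protein-coding genes with the smallest unadjusted p, at least 1 CPM and no overlap between groups. It named 12 lower genes, and 7 of them were in the neutrophil lists. The 4 neutrophil lists together held 47 of the 15469 genes tested. These lists were chosen with earlier results of these data known, and the 12 were picked by p from the same data. The 7 are therefore a description, and an excess over other genes was not tested. Of the protein-coding genes with at least 1 CPM, 134 were lower and 113 higher without overlap. Over all genes tested these shares were 1.37% and 1.05%. The lack of overlap in the named genes comes from the rule. The 12 were Ltf, Lcn2, Prss34, S100a9, Camp, Cd177, Ctsg, Itgb2l, Rab44, Gm10800, Cd4 and Nol12, with edgeR adjusted p from 0.000992 to 0.721. Rab44, a large Rab GTPase known from mast cell degranulation, stood at 3.94, 5.75, 5.38 and 5.30 CPM with IgG and 2.54, 3.14, 1.26 and 3.08 CPM with anti-ITGAV. Its change was -1.03 ± 0.23, and -0.80 ± 0.17 without anti-ITGAV 3. Cd4, the T cell co-receptor that some mononuclear phagocytes also express, stood at 1.19 to 1.88 CPM with IgG. Its change was -0.81 ± 0.21, and -0.82 ± 0.23 without anti-ITGAV 3. Nol12, a nucleolar RNA-binding protein, had a change of -0.49 ± 0.13, and -0.39 ± 0.11 without it. Gm10800 is a predicted gene whose value came from IgG 3, at 40.8 CPM against at most 0.805 CPM in the other 7 libraries, and it is reported as uncertain.

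The 12 higher genes named by the same rule had edgeR adjusted p from 0.176 to 0.721. They were Cytip, Fos, Plk2, Pcdh7, Bhlhb9, Rcbtb2, AI597479, Plxdc2, Myo1e, Rgs1, Rgs2 and Egr1. Fos, a subunit of the AP-1 transcription factor, stood at 29.8, 31.0, 25.5 and 29.9 CPM with IgG and 39.0, 43.2, 45.0 and 42.5 CPM with anti-ITGAV. Its change was 0.55 ± 0.11 (edgeR adjusted p = 0.176), and 0.52 ± 0.11 without anti-ITGAV 3 (edgeR adjusted p = 0.244). Of 23 alternative settings 3 called Fos: DESeq2 (adjusted p = 0.00127), edgeR with the GC offset (adjusted p = 0.0224) and limma with voom weights (adjusted p = 0.0193). Egr1, a zinc-finger factor of the same early response, went from 0.834 to 1.11 CPM under IgG to 1.75 to 2.67 CPM under anti-ITGAV, a change of 1.13 ± 0.32 (edgeR adjusted p = 0.721), and 1.14 ± 0.35 without anti-ITGAV 3.

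Others of these 12 act in adhesion and signalling. Cytip, which binds cytohesins and is known to reduce integrin adhesion in leukocytes, stood at 14.2, 9.69, 11.6 and 12.7 CPM with IgG and 18.9, 17.2, 24.4 and 16.9 CPM with anti-ITGAV. Its change was 0.68 ± 0.13, and 0.55 ± 0.11 without anti-ITGAV 3, which was the highest library. Plk2, a polo-like kinase, stood at 51.2 to 60.1 CPM with IgG and had a change of 0.46 ± 0.09, and 0.43 ± 0.09 without anti-ITGAV 3. Pcdh7, a protocadherin, stood at 55.5 to 78.6 CPM with IgG and had a change of 0.55 ± 0.12, and 0.45 ± 0.11 without that library. Myo1e, a membrane-binding myosin of the actin cortex, stood at 130 to 143 CPM with IgG and 170 to 178 CPM with anti-ITGAV, a narrow range in each group and a change of 0.32 ± 0.08, and 0.31 ± 0.08 without anti-ITGAV 3. Rgs1 and Rgs2, which shorten signals of G protein-coupled receptors, had changes of 0.93 ± 0.25 and 0.41 ± 0.11, and Rgs1 was highest in anti-ITGAV 3, at 49.0 CPM against 23.5 to 30.5 CPM in the others of its group. Without that library the change of Rgs1 was 0.66 ± 0.23 and that of Rgs2 0.37 ± 0.11.

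The immediate early list, which holds Fos and Egr1, had a median of 0.06 over 32 tested members, and 0.07 without anti-ITGAV 3. Its members went both ways, 17 positive and 15 negative from -0.73 to 1.36, and 22 positive and 10 negative without that library. At an unadjusted p under 0.05, 7 members were higher and 1 lower, where 2.6% of all genes were higher and 2.06% lower. Without anti-ITGAV 3, 8 were higher and 0 lower, against 1.19% and 1.33%. The groups did not overlap for 4, all higher, against 1.05% of all genes, and for 9 without anti-ITGAV 3, against 1.91%. Egr2, from the same family as Egr1, stood at 8.43 to 9.11 CPM with IgG and 10.5 to 13.7 CPM with anti-ITGAV (0.44 ± 0.14, edgeR adjusted p = 0.721, and 0.49 ± 0.14 without anti-ITGAV 3). The summed level of the list was 1328 to 1445 CPM with IgG, 1473 to 1520 CPM in 3 anti-ITGAV libraries and 1308 CPM in anti-ITGAV 3.

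The same antibody on uncoated dishes gave changes of the same sign for 11 of the 12 lower and 10 of the 12 higher genes. Those libraries are separate from the 8 on fibronectin, and in them 2 genes passed the test (0.0129%). Over all genes tested, 7241 changes were negative and 8228 positive on uncoated dishes. The share of all genes with the same sign on both coatings is not given here, so the 11 and the 10 are a description. On uncoated dishes the mean of Ltf was 66.1 ± 3.41 CPM with IgG and 45.4 ± 3.63 CPM (each SD, n = 4) with anti-ITGAV, a log2 change of -0.54 ± 0.11. The test of the difference between coatings, the coating by antibody interaction, passed for 0 of 15469 genes (edgeR, smallest adjusted p 0.646). At an unadjusted p under 0.05 it held 614 genes, or 3.97%, and without anti-ITGAV 3 it held 471, or 2.99%. DESeq2 called 1. With all libraries, the difference was -0.46 ± 0.16 for Ltf, -0.37 ± 0.15 for Lcn2 and -0.58 ± 0.26 for Camp. The edgeR adjusted p was 0.646 for each. Ngp had -0.24 ± 0.24. Its change was -0.52 on uncoated dishes, and on fibronectin -0.75 with anti-ITGAV 3 and -1.02 without it. For Camp these were -0.43, -1.01 and -0.87. Of the 31 granule and cytosol genes, 7 had an unadjusted p under 0.05 for this difference with all libraries. Mpo and Prtn3 were among the 7, and both were lowest in anti-ITGAV 3. The differences of single genes without that library are not given here. The summed level of Ltf, Lcn2, Ngp and Camp was 204 CPM with IgG and 143 CPM with anti-ITGAV on uncoated dishes, against 182 ± 29.2 and 101 ± 16.7 CPM on fibronectin (means of 4, SD).

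**Figure D3:**
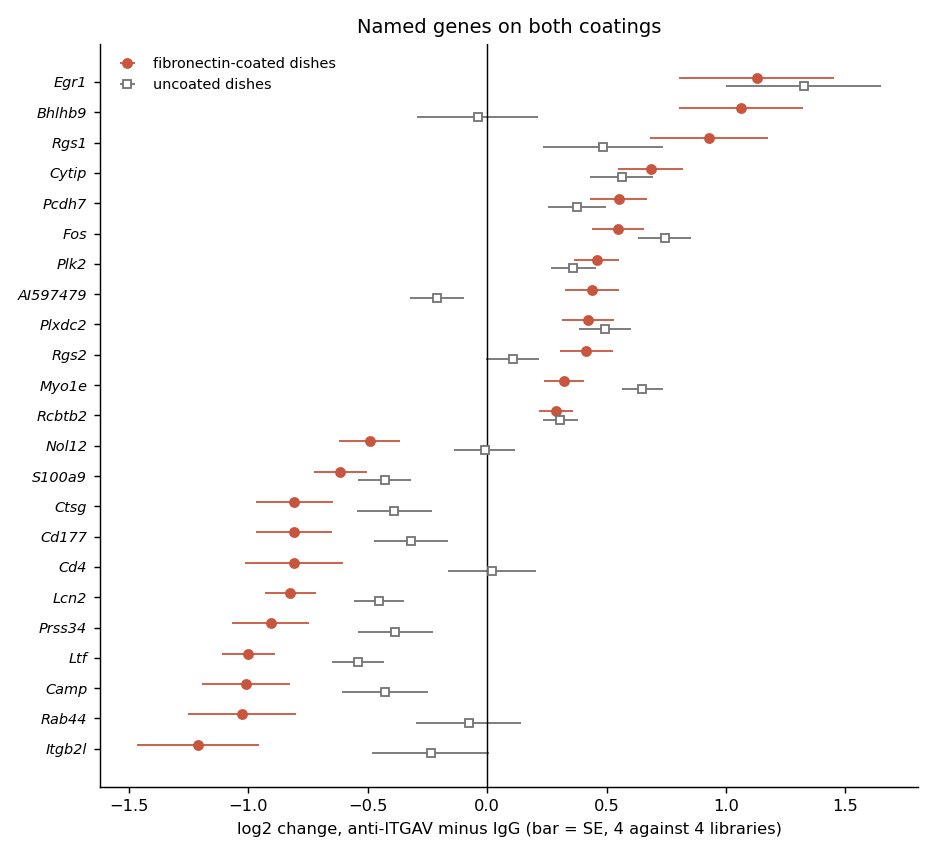
Log2 change, anti-ITGAV minus IgG (horizontal axis, with SE), of 23 of the 24 genes named by the rule, on fibronectin (red circles) and on uncoated dishes (grey squares), with Gm10800 left out because its value came from a single library. Ltf is at -1.0 and -0.54 and Egr1 at 1.13 and 1.33, and the coating difference passed the test for no gene.

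Integrin chains did not pass the test. Itgav, which encodes the target, stood at 178, 102, 121 and 176 CPM with IgG and 191, 159, 166 and 169 CPM with anti-ITGAV. The groups overlapped, with a change of 0.25 ± 0.16 (edgeR adjusted p = 0.721), and 0.26 ± 0.18 without anti-ITGAV 3. Because the antibody acts on the protein, this RNA cannot check the labels. Of the chains that pair with αV, Itgb1 was at 604 to 853 CPM with IgG (0.17 ± 0.11), Itgb3 at 3.29 to 8.49 CPM (-0.08 ± 0.22) and Itgb5 at 303 to 384 CPM (-0.21 ± 0.13). Without anti-ITGAV 3 these changes were 0.10 ± 0.10, -0.01 ± 0.24 and -0.07 ± 0.09. Per gene length, Itgb1 stood at 183 FPKM, Itgb5 at 92.2 FPKM, Itgav at 13.1 FPKM and Itgb3 at 0.860 FPKM under IgG. Itgb6 was at 0 in all 8 libraries, and Itgb8 was not among the genes tested. Itga5, the α chain of the classical fibronectin receptor, was at 116 to 126 CPM with IgG and at 67.3 CPM in anti-ITGAV 3, where the others of its group held 114 to 139 CPM (-0.10 ± 0.16, and 0.08 ± 0.10 without it).

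The leukocyte chains Itgax and Itgam differed in what they rested on. Itgax, the CD11c chain, stood at 33.7 to 41.3 CPM with IgG and 41.9 to 49.8 CPM with anti-ITGAV, without overlap, a change of 0.25 ± 0.11 (edgeR adjusted p = 0.721), and 0.24 ± 0.11 without anti-ITGAV 3. Itgam, the CD11b chain, was at 657 CPM in anti-ITGAV 3 and at 323 to 353 CPM in the other 7 libraries (0.33 ± 0.16, and 0.03 ± 0.06 without it). The 17 tested integrin chains had a median change of -0.04, and -0.01 without anti-ITGAV 3.

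Matrix and cytoskeletal lists had medians near 0, with members on both sides. Fn1, which encodes fibronectin itself, stood at 491 to 538 CPM with IgG and 374 to 518 CPM with anti-ITGAV (-0.19 ± 0.11, and -0.11 ± 0.10 without anti-ITGAV 3). The 38 tested focal adhesion and actin genes had a median of -0.08 and the 23 matrix genes -0.13, and -0.02 and 0.02 without anti-ITGAV 3. Thbs1, thrombospondin 1, which activates latent TGF-β, had a change of 0.27 ± 0.10, and 0.35 ± 0.09 without that library (edgeR adjusted p = 0.766). Lrrc32, which displays latent TGF-β at the cell surface, stood at 0.774 to 1.67 CPM with IgG. Its change was 0.78 ± 0.27, and 0.93 ± 0.27 without anti-ITGAV 3, in a TGF-β list with medians of -0.04 and -0.02. Myl9, a myosin light chain of contractile cells, was at 0.202 to 0.626 CPM with IgG and 0 to 0.134 CPM with anti-ITGAV, near the limit of counting. Mmp12, the macrophage elastase, stood at 381 to 663 CPM with IgG. Its change was 0.50 ± 0.18 (edgeR unadjusted p = 0.0130), and 0.37 ± 0.19 without anti-ITGAV 3 (edgeR unadjusted p = 0.0774).

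The macrophage identity list had a median near 0. Its 23 tested genes had a median change of -0.00, 12 of them negative and 11 positive. In edgeR's test 0 had an unadjusted p under 0.05, against 4.65% of all genes, so a count of 0 in a list of this size says little. Without anti-ITGAV 3 the median was -0.02, and 15 were negative and 8 positive. At an unadjusted p under 0.05, 1 was then higher, against 1.19% of all genes. It was Cd14, a receptor for bacterial lipopolysaccharide (0.24, edgeR unadjusted p = 0.0236). Csf1r had a change of -0.09 ± 0.09, Adgre1, which encodes F4/80, 0.10 ± 0.07, Cd68 -0.05 ± 0.10 and Mertk, a receptor for dying cells, 0.05 ± 0.08. Without anti-ITGAV 3 these were -0.02 ± 0.08, 0.05 ± 0.06, -0.01 ± 0.09 and 0.05 ± 0.08. Spi1, the factor PU.1, was at 176 CPM in anti-ITGAV 3 and at 314 to 399 CPM in the other 7 libraries, so its change went from -0.25 ± 0.16 to -0.06 ± 0.09 without that library.

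Among lipid genes, Pparg, the nuclear receptor of lipid uptake, stood at 18.9 to 24.3 CPM with IgG and 25.2 to 31.7 CPM with anti-ITGAV, without overlap (0.37 ± 0.11, edgeR adjusted p = 0.721). Lpl, lipoprotein lipase, had 0.46 ± 0.14 and Fabp4, a fatty acid carrier, 0.41 ± 0.15. Without anti-ITGAV 3 the changes of Pparg, Lpl and Fabp4 were 0.33 ± 0.11, 0.39 ± 0.15 and 0.43 ± 0.15. In both fits these 3 were the members higher at an unadjusted p under 0.05, of 31 tested, against 2.6% of all genes with all libraries and 1.19% without anti-ITGAV 3. The medians of the list were 0.02 and 0.01. Of the type I interferon genes, 29 of 36 had a positive change, and 32 of 36 without anti-ITGAV 3, where 7737 of 15469 genes did with all libraries and 49.6% without it. The changes ran from -0.26 to 0.59, with medians of 0.16 and 0.10. In both fits none of the 36 was higher or lower at an unadjusted p under 0.05, against 4.65% of all genes with all libraries and 2.51% without anti-ITGAV 3. Single libraries overlapped, as for Rsad2, an antiviral enzyme, at 54.9 to 84.9 CPM with IgG and 70.0 to 113 CPM with anti-ITGAV (0.34 ± 0.19, and 0.24 ± 0.21 without anti-ITGAV 3). Of the alternative activation genes, Clec7a, the β-glucan receptor dectin-1, had 0.58 ± 0.19 and Il4ra, the interleukin 4 receptor chain, -0.32 ± 0.13 in a list with a median of -0.14. Without anti-ITGAV 3 they had 0.44 ± 0.19 and -0.18 ± 0.08, and the median was -0.09.

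**Figure D4:**
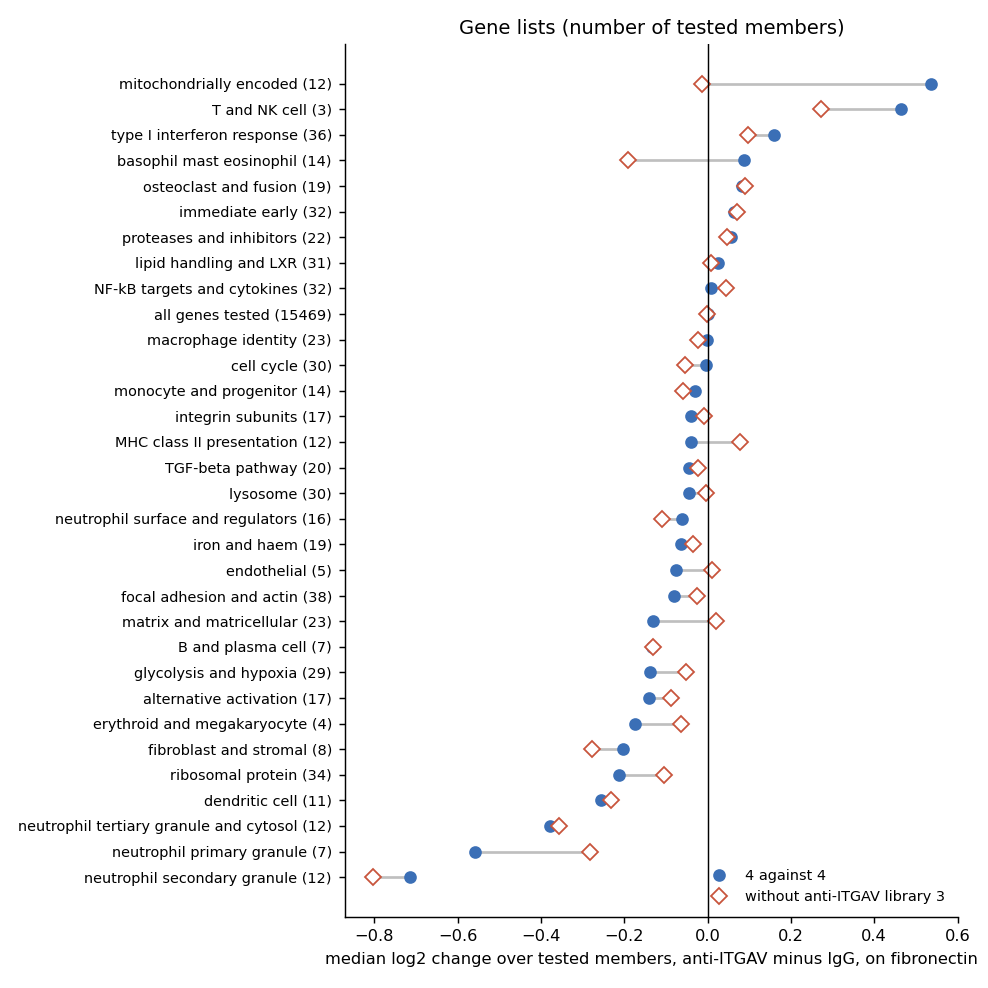
Median log2 change, anti-ITGAV minus IgG on fibronectin (horizontal axis), over the tested members of each gene list and over all genes, for 4 against 4 (filled) and without anti-ITGAV 3 (open). The secondary granule list is lowest in both, at -0.71 and -0.80, and the mitochondrially encoded genes move from 0.53 to -0.01.

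Some list medians lay nearer to 0 without anti-ITGAV 3. The 12 tested mitochondrially encoded genes had a median change of 0.53, and -0.01 without that library. For example, mt-Nd2, a subunit of complex I, was at 2966 CPM in it and at 733 to 865 CPM in the other 7. Ribosomal protein genes had a median of -0.21, with 30 of 34 negative, and -0.11 without anti-ITGAV 3, with 32 of 34 negative. Of all 15469 genes, 7732 were negative with all libraries and 7783 without anti-ITGAV 3. At an unadjusted p under 0.05, 4 ribosomal genes were lower, against 2.06% of all genes, and 3 without anti-ITGAV 3, against 1.33%. The negative signs thus remained without that library. Rpl37, a protein of the large ribosomal subunit, was at 81.7 CPM in anti-ITGAV 3, at 158 to 177 CPM in the others of its group and at 170 to 221 CPM with IgG. The glycolysis list had medians of -0.14 and -0.05. In the single libraries, the median deviation of the secondary granule list from the mean of the 8 was 0.17 to 0.45 on the log2 scale with IgG and -0.41 to -0.11 with anti-ITGAV.

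**Figure D5:**
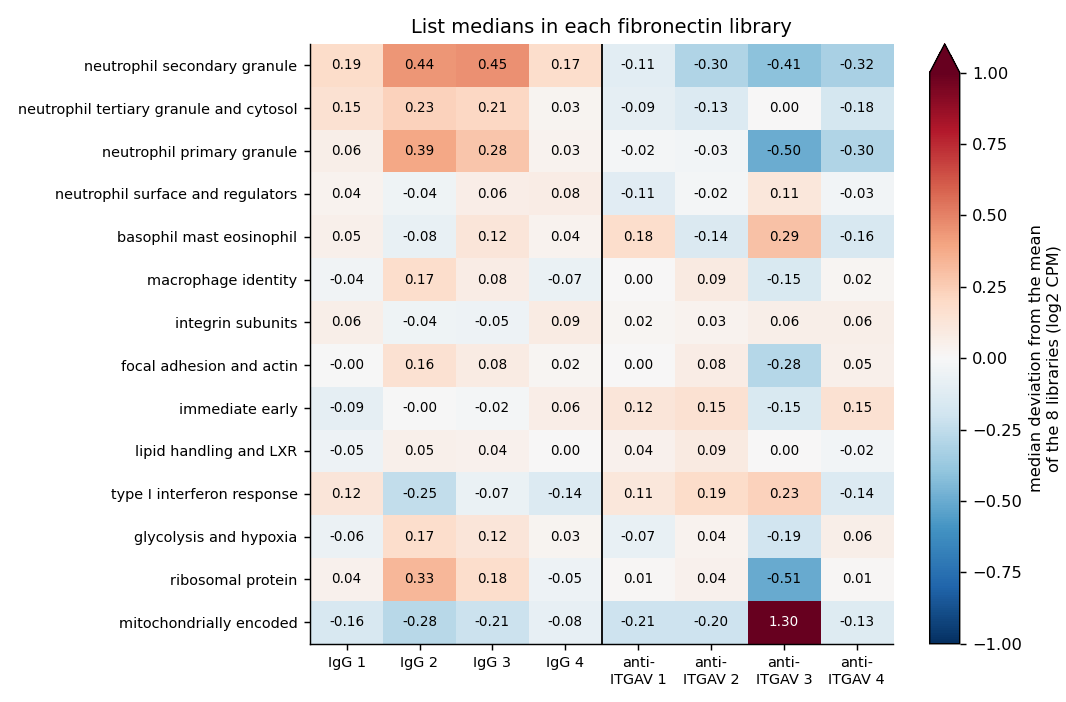
Median deviation of log2 CPM from the mean of the 8 fibronectin libraries (colour and printed value), for 14 gene lists (rows) in each library (columns). The secondary granule row is positive in all 4 IgG libraries and negative in all 4 anti-ITGAV libraries, and anti-ITGAV 3 reaches 1.30 for mitochondrially encoded genes.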

How the data were processed

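RNA was measured in 16 polyA-selected libraries of mouse bone marrow macrophages. The table deposited by the authors gives whole-number counts per gene for 54532 genes, of which 25574 had no count in any library. FPKM were deposited by the authors for the same genes, and recomputing them from counts and gene lengths gave a library divisor of 0.989 to 1.04 times the total. The submitters' processing notes name the builds mm10 and GRCm38.p6 and the tools HISAT2, StringTie and featureCounts. For the counting options (strand, reads with several matches), the setting is not given in the sources used here. Coordinates come from the deposited table (GRCm38).

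Counts were used unchanged in R 4.3.3 with edgeR 4.0.16. Genes were kept by filterByExpr (minimum count 10), which left 15469 genes with 99.9% of the counts, 12343 of them protein-coding. TMM factors were applied, and a robust quasi-likelihood model with 4 group means covered all 16 libraries. The contrasts were anti-ITGAV against IgG on fibronectin, the same on uncoated dishes, and their difference, with Benjamini-Hochberg adjustment over all genes tested and a threshold of 0.05. CPM use TMM-scaled totals. The fit without anti-ITGAV 3 was filtered and scaled anew. Pairs of libraries within a group differed with a chi-square per degree of freedom of 5.40 to 207, so no library was a copy of another. With IgG on fibronectin, libraries 1 and 4 (5.40) and libraries 2 and 3 (17.3) lay closest, against 39.8 to 89.1 for the other pairs. Ltf was at 54.7 and 50.5 CPM in IgG 1 and 4, and at 73.0 and 69.4 CPM in IgG 2 and 3. Itgav was at 178 and 176 CPM, and at 102 and 121 CPM. The reason for this split was not tested.

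Named genes were those called with or without anti-ITGAV 3, and the 12 lower and 12 higher protein-coding genes with the smallest unadjusted p, a mean of at least 1 CPM and no overlap between groups. Named besides were the markers Ltf, Lcn2, Ngp and Camp, integrin chains with Fn1, neutrophil and integrin list members by role, and up to 3 members of any other list described. Single-gene values of a few list members are not reported here. The members, the 31 gene lists (637 symbols, 635 found, 560 tested) and the rules were chosen with earlier results of these data known. Lists are described by counts and medians without a test. Upstream sequences are from a RefSeq table for GRCm38.p6. The fit was tested on simulated counts. Alternatives were DESeq2 1.42.0, other scaling factors and filters, the fibronectin libraries alone, a replicate block, a GC offset (spline with 5 degrees of freedom), limma 3.58.1 with voom weights or on log2(FPKM + 1) and log2(FPKM + 0.1), and leaving out each library. Figures were drawn with Python 3.11.15 and matplotlib 3.10.9.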

Additional observations from a re-analysis of the deposited data

Results flagged for a closer look

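In each group of 4 libraries, the gap of the highest or lowest library to its neighbour was divided by the range of the group, and values above 0.829 were picked out. Of 190 such tests 23 passed, where chance gives about 1 in 20, and 18 of the 23 fell in anti-ITGAV 3. That library was far above the others of its group for the mitochondrial share of counts (0.957) and for mt-Nd6 (0.955), mt-Nd2 (0.941) and mt-Nd4l (0.923). It was also far above them for S100a8 (0.947), the small GTPase gene Cdc42 (0.947), Wfdc17 (0.941), Itgam (0.915), the chemokine gene Ccl9 (0.904), the tetraspanin gene Cd9 (0.904), Ngp (0.900) and the replication clamp gene Pcna (0.869). It was far below them for Cyba (0.897), Itgb5 (0.864), Csf3r (0.848), Cebpd (0.832), Spi1 (0.830) and the ribosomal gene Rpl27 (0.829).

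The other 5 were spread over 5 libraries. IgG 3 was far above its group for Gm10800 (0.982). IgG 1 was high for the eotaxin receptor gene Ccr3 (0.881). IgG 4 was low for S100a8 (0.851). Anti-ITGAV 2 was high for Timp3, a metalloproteinase inhibitor gene at most at 0.191 CPM in its group (0.887), and anti-ITGAV 4 had the lowest total count of its group (0.873).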

How the results depend on the processing

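Against 2 genes called, DESeq2 called 18, the GC offset 11, voom with quality weights 6, the fit with no low-count filter 4 and limma on log2(FPKM + 1) with no filter 4. The 8 fibronectin libraries alone called 0 (276 at an unadjusted p under 0.05), and the same without anti-ITGAV 3 called 0 (291). Leaving out 1 library gave 1 to 5 calls, 1 without anti-ITGAV 1 and 5 without anti-ITGAV 3. The interaction had 0 calls in the other settings run and 1 with DESeq2. Same-numbered libraries did not deviate together (correlations -0.11 to 0.26, with 1 of 4 anti-ITGAV libraries closest to its own number). The replicate block gave 3 calls, and 5 with the GC offset. Ltf was negative in all 23 alternatives and called in 21, and Lcn2 was called in 20. Without anti-ITGAV 3 and with the GC offset, 3 genes were called, a setting chosen after seeing the data.

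Of 92 named genes, 19 had a change of the other sign in at least 1 alternative. For 9 of them the change was smaller than its SE, among them S100a8 (up to 0.14), Itga5 (up to 0.11) and Itgb3 (up to 0.30). The other 10 included mt-Nd2 (0.71), mt-Nd6 (0.66) and Elane (-0.56). With voom weights they were 0.030 for Cyba, 0.021 for Elane, 0.044 for Cebpd, -0.014 for Itgb1, 0.0078 for Itgb5 and 0.0075 for Spi1. In 7 fibronectin libraries alone they were 0.0035 for Cebpd and -0.039 for mt-Nd2. With the GC offset and without anti-ITGAV 3 they were -0.049 for Wfdc17, -0.059 for Ccl9, -0.0096 for mt-Nd6, -0.13 for mt-Nd2 and 0.030 for Cebpd. Leaving out 1 library gave -0.44 to 0.0075 for Cebpd and -0.036 to 0.93 for mt-Nd2. The causes were not tested. Depth limits Itgb8, Myl9, Timp3 and other genes near 3 counts.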

Other observations

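Lists not described above lay near the median of all genes, 0.00. With all 8 fibronectin libraries the median log2 change was 0.08 for 19 osteoclast and fusion genes, 0.06 for 22 proteases and inhibitors, 0.01 for 32 NF-kB targets and cytokines, -0.00 for 30 cell cycle genes, -0.03 for 14 monocyte and progenitor genes, -0.04 for 12 MHC class II genes, -0.05 for 30 lysosome genes, -0.06 for 19 iron and haem genes and -0.08 for 5 endothelial genes. Without anti-ITGAV 3 these medians were, in the same order, 0.09, 0.05, 0.04, -0.05, -0.06, 0.08, -0.00, -0.04 and 0.01. The MHC class II genes went from 9 negative and 3 positive to 3 negative and 9 positive without that library. Among single members, Atp6v0d2, a proton pump subunit needed for osteoclast fusion, stood at 33.0 to 50.2 CPM with IgG and 43.0 to 72.1 CPM with anti-ITGAV (0.42 ± 0.18, and 0.28 ± 0.18 without anti-ITGAV 3). Il1rn, the interleukin 1 receptor antagonist, was at 96.7 CPM in anti-ITGAV 3 and at 45.3 to 63.9 CPM in the others of its group, against 40.4 to 58.0 CPM with IgG. Its change was 0.45 ± 0.17 with that library and 0.21 ± 0.12 without it. Nr4a1, a nuclear receptor of patrolling monocytes and of the early response, stood at 3.00 to 3.75 CPM with IgG and 4.85 to 6.00 CPM in 3 anti-ITGAV libraries, and at 2.88 CPM in anti-ITGAV 3. Its change was 0.49 ± 0.22, and 0.67 ± 0.19 without that library (edgeR unadjusted p = 0.00249, which did not pass after adjustment). Ppbp, a platelet chemokine, stood at 3.36 to 4.41 CPM with IgG and 3.92 to 8.50 CPM with anti-ITGAV (0.64 ± 0.25, and 0.43 ± 0.24 without anti-ITGAV 3).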
